A study of Mus musculus with 8 samples.

Results

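The genes described here are 40 genes of glycolysis and of the response to low oxygen, chosen by their symbols from the 21848 genes of the count tables. All 40 symbols were found. They fall into 15 glycolytic enzymes, 5 genes of glycolytic control and lactate transport, 5 genes of oxygen sensing and 15 other genes that low oxygen is known to induce. The symbol Aldoa names 2 gene entries, of which ENSMUSG00000030695 held 221000 unique molecular identifiers (UMIs) in the cells and is used here, and ENSMUSG00000114515 held 54.

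Glycolysis splits glucose into pyruvate, which lactate dehydrogenase can turn into lactate, so that ATP can be made where oxygen is short. Low oxygen stabilises the alpha subunits of the hypoxia-inducible factors, encoded by Hif1a and Epas1, because the prolyl hydroxylases encoded by Egln1 and Egln3 need oxygen to mark them for degradation. The alpha subunits pair with the product of Arnt and switch on genes of glucose use, pH balance, angiogenesis and mitophagy. In the brain, astrocytes are known for a strongly glycolytic metabolism and for the release of lactate.

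The cells came from the right sensorimotor cortex of adult mice whose labels give the genotype Bl/J6 and the sex female, whereas the study's methods name C57BL/6N mice of both sexes. They were taken 6 days after photothrombosis (PT), in which a light-activated dye clots the vessels of an area of 4 mm diameter. Of the 8 mice, 4 received ancrod, a snake-venom enzyme that depletes fibrinogen, at 2.4 U (2.0 mg per kg body weight) per day from osmotic pumps placed 2 days before PT, and 4 received saline as control, so both groups carried a pump and a lesion and no uninjured cortex was profiled. The lesion and a rim of spared tissue, a square of about 5 mm without the meninges or corpus callosum, was dissociated from each mouse and sequenced as its own 3′ single-cell library without enrichment for a cell type. Replicates 1 to 3 of each group formed batch 1 of injury and sequencing, and replicate 4 of each group formed batch 2. Ancrod acts on a plasma protein, so no transcript measured here could check the treatment labels.

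The saline libraries held 97861434 to 122758649 UMIs and the ancrod libraries 126682918 to 142139441, so the ancrod libraries were all deeper. Of 46216 droplets with at least 2000 UMIs and less than 20% mitochondrial UMIs, 2144 were removed as likely doublets, which left 22065 cells of saline mice and 22007 of ancrod mice. The 28 pairs of libraries shared 3 to 15 barcodes each. Cells were clustered without the 40 genes, and clusters were named from fixed marker lists as "-like" classes. The 4585 cells of 11 clusters stayed unnamed and are in no class. Of these, 3184 cells in 4 clusters were left out for a low median depth with no marker of their best class among the leading 10 genes, 1257 cells in 3 clusters because markers of another class led them and 144 cells in 4 clusters because over 50% of their droplets were doublets. Levels are given for 12 classes as CPM, the UMIs of a gene per 1000000 UMIs of the class in a mouse, and ancrod was compared with saline in the 11 classes with at least 20 cells in 3 or more mice of each group. The level of a gene in a class does not tell more cells with the transcript from more transcript per cell. Levels are compared between classes for 1 gene at a time and not between genes, and a highest or lowest class is one of these 12. Free RNA was present in every library. Droplets with at most 100 UMIs held, for example, 97.7 to 130 CPM of Hk2 and 170 to 851 CPM of Aldoc. Part of any level can therefore be free RNA, and the size of that part was not measured. A level at or below that of the empty droplets does not by itself mean that all of it is free RNA. Of the 54 pairs of member and class described for ancrod against saline, all mice lay below the empty droplets for 11 and above them for 11, and the part of free RNA in these comparisons was not tested beyond the removal of 5% of each sum.

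Among the 12 classes, astrocyte-like cells stood apart in the glycolytic enzymes. The 15 enzymes together took 0.788% ± 0.048 (SD, n = 4) of the UMIs of astrocyte-like cells in saline mice, with single mice between 0.745% and 0.837%. In the other 11 classes the means lay between 0.182% in oligodendrocyte precursor-like and endothelial-like cells and 0.342% ± 0.017 (SD, n = 4) in monocyte-like cells. Much of the astrocyte-like total came from Aldoc, the aldolase of brain, and from Gapdh, which makes the first high-energy intermediate of the pathway. Without these genes the share was, of the 12 classes, still highest in astrocyte-like cells. It was 0.331% ± 0.012 there against 0.245% ± 0.009 in monocyte-like cells (SD, n = 4 each), and the mice of the classes did not overlap.

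**Figure D1:**
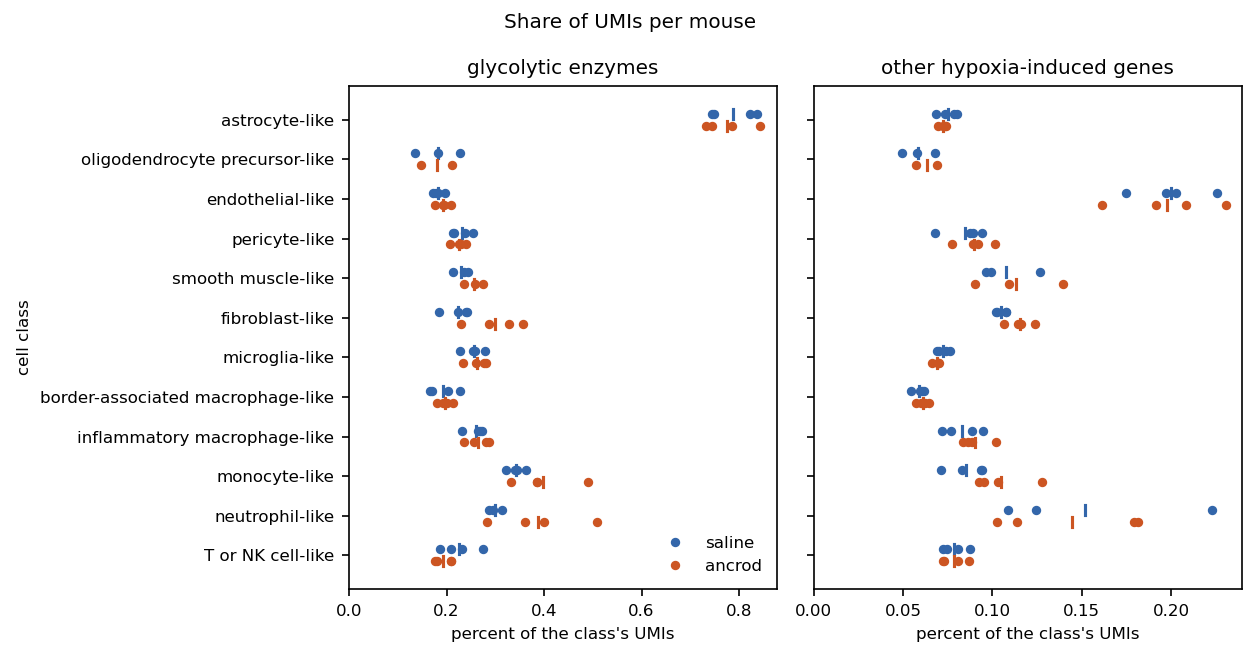
Share of UMIs taken by the 15 glycolytic enzymes (left) and by the 15 other hypoxia-induced genes (right), in percent of the UMIs of each cell class. Points are mice, bars are group means, blue is saline and orange is ancrod. Astrocyte-like cells stand at 0.731 to 0.843% on the left, and endothelial-like cells at 0.161 to 0.231% on the right. In the fibroblast-like class 3 of the 4 ancrod mice lie above all saline mice on the left.

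Of the 15 enzymes, 9 had their highest saline median in astrocyte-like cells. Aldoc reached 3082, 3412 and 3945 CPM as the lowest, median and highest saline mouse, 29.3 times the median of 117 CPM in oligodendrocyte precursor-like cells, the next class, and 97.0% of its UMIs in named cells of saline mice were in astrocyte-like cells. Pfkm, the muscle form of phosphofructokinase, stood at 137 to 166 CPM in astrocyte-like cells and at a median of 45.2 CPM in the next class. Pfkp, the platelet form, stood at 239 to 260 CPM in astrocyte-like cells and at 153 to 168 CPM in T or NK cell-like cells, while microglia-like cells had a median of 2.62 CPM. The third form, Pfkl, was instead highest in endothelial-like cells, at 74.9 to 82.4 CPM, and pericyte-like mice overlapped that range. Phosphofructokinase catalyses the committed step of glycolysis, and its paralogs were thus not all highest in the same class.

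Hexokinases, which trap glucose in the cell, also divided between classes. Hk1 was highest in astrocyte-like cells, at a median of 93.6 CPM (lowest 82.1, highest 104), and lowest in microglia-like cells, at 11.1 CPM. Hk2 was highest in microglia-like cells, with 358 to 412 CPM, 109 CPM as the median in inflammatory macrophage-like cells, 21.5 CPM in astrocyte-like cells and 1.35 CPM in endothelial-like cells, the lowest class. Microglia-like cells held 87.0% of the Hk2 UMIs in named cells of saline mice, and made up 40.1 to 44.2% of all cells in these mice. The endothelial-like value lies far below the 97.7 to 130 CPM of the empty droplets.

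The enzymes of the later steps of the pathway followed. Tpi1, which interconverts the triose phosphates, stood at 278 to 319 CPM in astrocyte-like cells against a median of 184 CPM in pericyte-like cells. Pgk1, which makes ATP from bisphosphoglycerate, stood at 295 to 336 CPM against 192 CPM in monocyte-like cells, and Eno1, the enolase of most tissues, at 381 to 452 CPM against 227 CPM in monocyte-like cells. In all of these the astrocyte-like mice lay above every mouse of the next class. For Gapdh (1039 to 1175 CPM) monocyte-like mice overlapped the astrocyte-like range, and for Pgam1, the phosphoglycerate mutase (345 to 431 CPM), both inflammatory macrophage-like and monocyte-like mice did.

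Unnamed clusters of low depth, which had microglia as their best marker score, went above these classes. Cluster 20, 814 cells led by Cd5l and Apoc4 with a median of 2925 UMIs, held 1963 to 2506 CPM of Gapdh in saline mice, and cluster 40, 284 cells led by the cell-cycle genes Birc5 and Ube2c with a median of 2999.5 UMIs, held 2348 and 3056 CPM in the 2 saline mice with at least 20 cells. The median of cluster 20 was above the highest class median for 6 enzymes (Pfkl, Aldoa, Tpi1, Gapdh, Pgam1 and Pkm), and that of cluster 40 for 7 (Aldoa, Tpi1, Gapdh, Pgk1, Pgam1, Pkm and Ldha). Pkm stood at 618 to 815 CPM in cluster 20, and Ldha at 500.2 and 562 CPM in cluster 40. Their glycolytic shares in saline mice were 0.507 to 0.618% and 0.566 to 0.720%, below the astrocyte-like mice and above the means of the other 11 classes, and in ancrod mice they were 0.614 to 0.881% and 0.400 to 0.979%. These shares count Aldoc. Its saline median was 18.0 CPM in cluster 20 and 11.6 CPM in cluster 40, against 3412 CPM in astrocyte-like cells. The share without Aldoc and Gapdh was computed for the 12 classes and not for these clusters. That astrocyte-like cells were highest without these genes therefore holds among the 12 classes only. The part of depth in these values was not tested.

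The remaining enzymes had no class clearly on top. Aldoa was highest in pericyte-like cells (median 525 CPM) next to astrocyte-like cells (508 CPM). Gpi1, the phosphoglucose isomerase, was highest in smooth muscle-like cells (231 CPM) next to neutrophil-like cells (221 CPM), and Pkm, the pyruvate kinase, in monocyte-like cells (500.5 CPM) next to neutrophil-like cells (499 CPM). Ldha, the lactate dehydrogenase that favours lactate, was highest in fibroblast-like cells (353 CPM), whose mice overlapped those of 3 other classes. Reads of Gapdh, Pgk1, Pgam1, Eno1, Ldha and Aldoa can be shared with near-identical pseudogenes, so their levels carry that uncertainty.

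**Figure D2:**
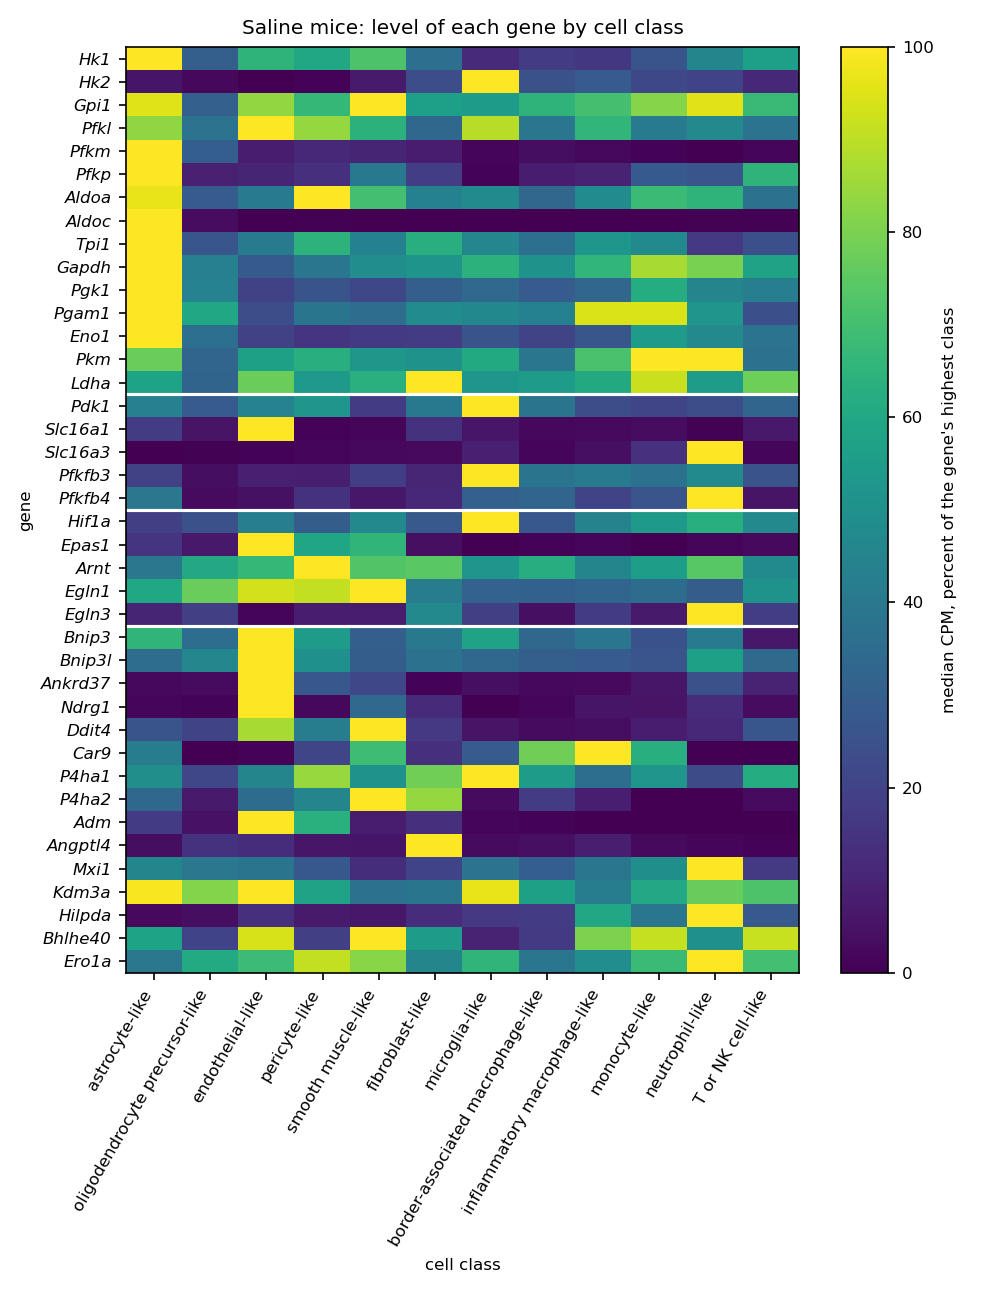
Median CPM over saline mice of each gene (vertical axis, grouped by list with white lines) in 12 cell classes (horizontal axis), as a percent of the class where that gene is highest. The enzymes in the top block peak mostly in the astrocyte-like column, Hk2 and Hif1a in the microglia-like column, and Epas1, Slc16a1 and Ndrg1 in the endothelial-like column.

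Genes of glycolytic control and lactate transport were the most class-specific list among the 12 classes, and for all 5 the mice of the highest class did not overlap those of the next. Slc16a1, a transporter of lactate and other monocarboxylates, stood at 519, 565 and 620 CPM in endothelial-like cells (lowest, median and highest saline mouse) and at a median of 100.3 CPM in astrocyte-like cells. Slc16a3, the transporter known for lactate export, stood at 378 to 503 CPM in neutrophil-like cells, with 59.2 CPM as the median of monocyte-like cells and 0.777 CPM in astrocyte-like cells. Pfkfb4, which sets fructose-2,6-bisphosphate, was also highest in neutrophil-like cells, at 74.9 to 107 CPM. Its relative Pfkfb3 was highest in microglia-like cells, at 238 to 272 CPM, and so was Pdk1, a kinase that inhibits pyruvate dehydrogenase, at 34.2 to 50.2 CPM. Neutrophil-like values rest on 3 saline mice with 42 to 71 cells each, because the saline mouse of replicate 1 had 12 cells. Within the astrocyte-like class, cluster 34 held 77.4 to 91.5 CPM of Pfkfb4 in 3 saline mice, inside the neutrophil-like range. Outside the 12 classes, Pdk1 in ependymal-like and neuron-like cells and Pfkfb3 in dendritic cell-like cells of saline mice were above the highest class median.

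The hypoxia-inducible factor subunits also divided between classes. Hif1a, whose product is known for driving glycolytic genes, was highest in microglia-like cells, at 370.3, 428 and 469 CPM, and lowest in astrocyte-like cells, at a median of 81.2 CPM. Epas1, which encodes the alpha subunit known from endothelium, was highest in endothelial-like cells, at 936, 1023 and 1260 CPM, followed by smooth muscle-like (669 CPM) and pericyte-like cells (606 CPM), with 2.32 CPM in microglia-like cells. Hence, of the 12 classes, the one with the highest glycolytic share had the lowest Hif1a level, while Hif1a stood lower still in the saline cells of 3 classes with too few cells for a class level, at 39.6 CPM in ependymal-like, 48.2 CPM in erythroid-like and 60.3 CPM in neuron-like cells. The shared partner Arnt ranged between a median of 136 CPM in pericyte-like cells and 54.1 CPM in astrocyte-like cells.

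The oxygen sensors differed in breadth. Egln1 was highest in smooth muscle-like cells (115 CPM), and mice of 3 other classes overlapped that range. Egln3, itself a hypoxia-induced gene, stood at 33.5 to 78.6 CPM in neutrophil-like cells and 17.2 to 23.5 CPM in fibroblast-like cells, and was at a median of 0.870 CPM in endothelial-like cells, below the 5.82 to 8.75 CPM of empty droplets.

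Endothelial-like cells were highest for the other hypoxia-induced genes as a sum, at 0.200% ± 0.021 (SD, n = 4) of their UMIs, followed by neutrophil-like cells at 0.152% ± 0.062 (SD, n = 3). The range of the 3 neutrophil-like mice, 0.109 to 0.223%, overlapped the endothelial-like range of 0.175 to 0.226%. Of the 15 genes, 6 were highest in endothelial-like cells. Ndrg1, a stress-induced gene of growth arrest, stood at 483 to 774 CPM there and at 187 CPM in smooth muscle-like cells. Ankrd37, a hypoxia-induced ankyrin protein, stood at 76.0 to 114 CPM against 25.8 CPM in pericyte-like cells. The mitophagy receptors Bnip3 (51.2 to 90.8 CPM) and Bnip3l (315 to 352 CPM) were also apart from the next class. Adm, the vasodilator peptide adrenomedullin (74.2 to 109 CPM), overlapped pericyte-like mice, and the histone demethylase gene Kdm3a (69.2 to 93.8 CPM) overlapped astrocyte-like and microglia-like mice.

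Other members of this list marked other classes. Angptl4, an inhibitor of lipoprotein lipase, stood at 207, 281 and 348 CPM in fibroblast-like cells, 6.82 times the median of the next class. Mxi1, a Myc antagonist, stood at 225 to 442 CPM in neutrophil-like cells against 180.0 CPM in monocyte-like cells. Hilpda, a lipid droplet protein, ranged from 194 to 1160 CPM in neutrophil-like cells and from 128 to 271 CPM in inflammatory macrophage-like cells. Ero1a, an oxidase of the endoplasmic reticulum, was highest in neutrophil-like cells (57.9 CPM), with 4 classes overlapping.

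The stress regulator Ddit4 was highest in smooth muscle-like cells (174 CPM) and, overlapping, in endothelial-like cells (151 CPM), and so was the clock-linked repressor Bhlhe40 (199.9 and 188 CPM), which T or NK cell-like mice also overlapped. The collagen prolyl hydroxylase subunits parted, with P4ha2 highest in smooth muscle-like (37.0 CPM) and, overlapping, fibroblast-like cells (31.2 CPM), and P4ha1 in microglia-like cells (225 CPM), whose range mice of 4 other classes overlapped. Car9, a carbonic anhydrase often used as a hypoxia marker, was at 8.07 CPM in inflammatory macrophage-like cells, its highest class, and at a median of 0 in neutrophil-like cells. In the 47 ependymal-like cells of saline mice, all from saline mouse 4, Car9 held 277 UMIs, which is 199.7 CPM in this 1 library (exact Poisson interval of 95%: 177 to 225, counting error only). The same cells held 419.5 CPM of Pgk1 (386 to 455) and 324 CPM of Pfkp (294 to 355), above the astrocyte-like medians of 309.9 CPM and 245 CPM, and were above the highest class median for 7 members in all. In 10 dendritic cell-like cells pooled over the 4 saline mice, with 2 or 3 cells from each, Bhlhe40 stood at 831 CPM (674 to 1012) and Pfkfb3 at 687 CPM (545 to 853). Counting these classes of few cells and the unnamed clusters with at least 2 saline mice of 20 cells, 18 of the 40 genes had a higher level outside the 12 classes than the highest class median. Among the 12 classes, the mice of the highest class did not overlap those of the next for 22 of the 40 genes.

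Levels also varied within classes, between clusters that had been made without the 40 genes. Among the 5 astrocyte-like clusters the glycolytic share in saline mice ran from 1.18 to 1.37% in cluster 14, led by Aldoc, Mt3 and Clu, down to 0.118 to 0.204% (3 mice) in cluster 34, led by Gpc5, Npas3 and Wdr17. Gapdh stood at 1379 to 1606 CPM in cluster 14 and at 51.6 to 213 CPM in cluster 34. Pfkp did not follow, with 231 to 311 and 240 to 285 CPM, and Hk1 stood at 98.3 to 124 and 84.9 to 99.6 CPM. Kdm3a went the other way, with 7.59 to 23.1 CPM in cluster 14 and 109 to 232 CPM in cluster 34. These clusters also differed in the median share of mitochondrial UMIs, 13.2% and 3.31%, and in median depth, 3894 and 5299 UMIs; the part of these values in the difference was not tested.

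In microglia-like clusters, too, members of the pathway differed in opposite directions. The glycolytic share was highest in cluster 33, led by the cell-cycle genes Mki67 and Top2a (0.384 to 0.418% in saline mice), and in cluster 3, led by Cd5l, Igf1 and Lpl (0.375 to 0.420%). The lowest median was that of cluster 16, led by P3h2 and Csmd3 (0.130 to 0.141%). Pkm stood at 629 to 711 CPM in cluster 33 and 72.6 to 81.4 CPM in cluster 16, and Pgk1 at 177 to 225 and 20.6 to 27.6 CPM. In contrast, Hk2 stood at 152 to 196 CPM in cluster 33 and 477 to 623 CPM in cluster 16, Pfkfb3 at 119 to 151 and 374 to 476 CPM, and P4ha1 at 106 to 121 and 362 to 407 CPM. Hif1a differed little, at 327 to 467 and 377 to 417 CPM. Cluster 33 had a median of 38158 UMIs and 3.54% mitochondrial UMIs, cluster 16 of 11737.5 UMIs and 1.80%, and the part of depth and of mitochondrial content in these differences was not tested. Median UMIs of cluster 3 were 26778.5.

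Endothelial-like clusters differed in single genes and in the glycolytic share. Cluster 31, led by Selp and Ackr1, had the highest median share (0.194 to 0.269%) and cluster 6 the lowest (0.164 to 0.179%). Slc16a1 stood at 202 to 262 CPM in cluster 31 and at 731 to 851 and 728 to 946 CPM in clusters 6 and 11. Epas1 stood at 442 to 606 CPM in cluster 31 and was highest in cluster 2, led by Gkn3 and Ly6c1, at 1306 to 1712 CPM. Ndrg1 stood at 154 to 371 CPM in cluster 31 and at medians of 634 to 672 CPM in clusters 2, 6 and 11, which overlapped. Hilpda was higher in cluster 31, at 63.9 to 186 CPM, than in cluster 6, at 17.3 to 30.2 CPM. Egln3, which is nearly absent from the class as a whole, stood at 1.43 to 5.99 CPM in cluster 31 and at 0.170 to 0.404 CPM in cluster 6. Cluster 31 had a median of 23713 UMIs and 4.43% mitochondrial UMIs, cluster 6 of 14095 UMIs and 3.44%, and 78 doublets were removed from cluster 31 against 1 from cluster 6. What depth, mitochondrial content and doublets contributed was not tested.

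**Figure D3:**
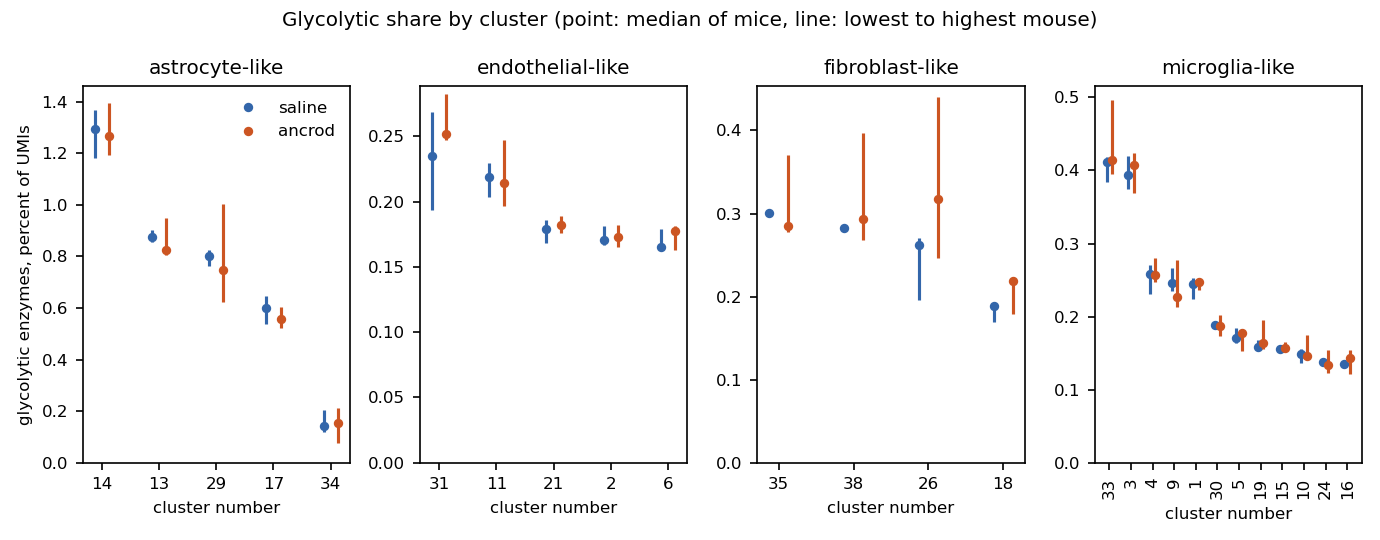
Share of UMIs of the 15 glycolytic enzymes in each cluster of 4 cell classes, in percent. Points are medians and lines run from the lowest to the highest mouse with at least 20 cells of the cluster, blue for saline and orange for ancrod. A point without a line is 1 mouse. In astrocyte-like cells the clusters run from 1.18 to 1.37% (cluster 14) to 0.118 to 0.204% (cluster 34) in saline mice.

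The other question was whether these genes differed between ancrod and saline mice. UMIs were summed per mouse and class and tested by edgeR (quasi-likelihood test) over all genes of the class, and p-values were adjusted by the Benjamini-Hochberg method with a threshold of 0.05. Over the 11 classes, 395 tests of members could be made, and none passed the threshold. At an unadjusted p under 0.05 there were 43. By class these were 2.50 to 45.0% of the members tested, against 2.97 to 14.8% of all genes. With DESeq2, another count model, 1 passed (Pgk1 in fibroblast-like cells, where 1.8% of all genes passed). Fold changes are log2, ancrod minus saline, after TMM scaling, while levels of single mice are plain CPM. The SE given with a fold change was derived from the edgeR test. It is the absolute fold change divided by the square root of the F statistic.

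The promoters of 5 of the members with the lowest p in fibroblast-like, pericyte-like and endothelial-like cells, and of Aldoc, the most class-specific enzyme, are shown to print the core letters of hypoxia response elements found in them. They are RefSeq sequences on build GRCm38.p6, the 250 bases before the annotated start, 5′ to 3′ on the strand of the gene, with the motif ACGTG and the motif GCGTG in capitals on either strand, so that matches on the other strand read CACGT or, for the latter motif, CACGC. For a gene with several starts the window with most matches is shown. No coordinates of this build were joined to the count tables, which use GRCm39.
Pgk1: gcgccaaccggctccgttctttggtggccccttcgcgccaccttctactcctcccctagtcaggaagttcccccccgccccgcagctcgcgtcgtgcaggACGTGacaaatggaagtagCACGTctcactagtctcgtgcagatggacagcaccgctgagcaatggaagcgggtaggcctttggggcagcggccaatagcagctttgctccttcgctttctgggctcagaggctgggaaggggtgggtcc
Pgam1: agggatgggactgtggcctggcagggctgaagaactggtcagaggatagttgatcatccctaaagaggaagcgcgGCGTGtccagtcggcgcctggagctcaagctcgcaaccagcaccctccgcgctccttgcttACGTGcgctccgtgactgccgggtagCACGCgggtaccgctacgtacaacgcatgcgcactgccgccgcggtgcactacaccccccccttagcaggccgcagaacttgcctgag
Hilpda: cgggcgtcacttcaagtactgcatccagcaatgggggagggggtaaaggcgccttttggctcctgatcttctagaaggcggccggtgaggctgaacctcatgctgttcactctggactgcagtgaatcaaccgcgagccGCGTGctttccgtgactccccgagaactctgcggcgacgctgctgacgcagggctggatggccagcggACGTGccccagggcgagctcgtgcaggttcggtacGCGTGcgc
Hk2: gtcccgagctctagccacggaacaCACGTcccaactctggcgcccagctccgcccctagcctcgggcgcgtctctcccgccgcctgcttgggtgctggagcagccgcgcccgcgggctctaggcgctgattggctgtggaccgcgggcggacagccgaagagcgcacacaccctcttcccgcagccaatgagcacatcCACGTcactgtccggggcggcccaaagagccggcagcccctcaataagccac
Egln3: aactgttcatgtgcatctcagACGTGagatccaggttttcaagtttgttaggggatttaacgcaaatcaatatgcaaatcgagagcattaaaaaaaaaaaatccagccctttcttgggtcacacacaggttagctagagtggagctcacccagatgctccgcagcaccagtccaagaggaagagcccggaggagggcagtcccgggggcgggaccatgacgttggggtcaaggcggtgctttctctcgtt
Aldoc: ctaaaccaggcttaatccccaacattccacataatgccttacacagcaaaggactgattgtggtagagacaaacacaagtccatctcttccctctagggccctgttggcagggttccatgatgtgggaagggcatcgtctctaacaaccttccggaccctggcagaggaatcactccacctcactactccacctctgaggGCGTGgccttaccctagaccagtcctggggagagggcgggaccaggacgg
They lie at chrX:106186850-106187099 (Pgk1, ENSMUSG00000062070, plus strand), chr19:41911621-41911870 (Pgam1, ENSMUSG00000011752, plus strand), chr6:29272376-29272625 (Hilpda, ENSMUSG00000043421, plus strand), chr6:82774455-82774704 (Hk2, ENSMUSG00000000628, minus strand), chr12:54203875-54204124 (Egln3, ENSMUSG00000035105, minus strand) and chr11:78322823-78323072 (Aldoc, ENSMUSG00000017390, plus strand). Hilpda and Pgam1 each held 3 matches, Pgk1 and Hk2 each held 2, both of them ACGTG on either strand, and Egln3 and Aldoc each held 1. RefSeq gave 53 windows for 35 of the 40 members, and gave no window for Epas1, Bnip3l, Ndrg1, Angptl4 and Bhlhe40. ACGTG on either strand stood in 26 of the 53 windows (49.1%) against 16.6% of all 32851 windows, and GCGTG in 28 (52.8%) against 28.2%. Each motif holds the dinucleotide CG, of which the member windows held a median of 14 and all windows a median of 6. A window in which ACGTG follows a C matches that motif on both strands at once. A match is a description of these letters and not a binding site.

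Fibroblast-like cells had the most members with a low unadjusted p. All 40 members were tested there and 0 passed the adjusted threshold, as did 0% of all genes, while 18 had an unadjusted p under 0.05 (45.0%), 16 of them higher in ancrod, against 14.8% of all genes in either direction. With DESeq2, Pgk1 passed (adjusted p = 0.0366), as did 1.8% of all genes. The median log2 fold change was 0.30 over the 40 members and 0.00 over all genes.

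The glycolytic enzymes made up most of this. Of the 15 enzymes 12 had a positive fold change, with a median of 0.40, and 10 had an unadjusted p under 0.05. Pgk1 stood at 81.3, 104, 92.2 and 94.4 CPM in saline mice 1 to 4 and at 151, 227, 95.5 and 175 CPM in ancrod mice 1 to 4. Ancrod mouse 3 lay within the saline range, and the other ancrod mice lay above it. The fold change was 0.82 (SE 0.23, edgeR unadjusted p = 0.00501, adjusted p = 0.225), with 0.77 in batch 1 and 0.89 in batch 2. Empty droplets held 105.5 to 164 CPM of Pgk1, so the 4 saline mice and ancrod mouse 3 lay below their lowest profile, and with 5% free RNA removed the fold change was 0.86 (adjusted p = 0.230).

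Pgam1 had the same pattern, at 148, 196, 188 and 175.5 CPM in saline mice and 244, 336.5, 195 and 252 CPM in ancrod mice. Its fold change was 0.56 (SE 0.17, edgeR adjusted p = 0.227), with 0.54 in batch 1 and 0.52 in batch 2, against 177 to 306 CPM in empty droplets. Eno1 (0.82), Pkm (0.55), Gapdh (0.50), Pfkl (0.48), Hk2 (0.45), Pfkp (0.40), Ldha (0.36) and Gpi1 (0.25) were the others with an unadjusted p under 0.05, and in all 8 of them ancrod mouse 3 again lay inside the saline range. As a share of UMIs the 15 enzymes took 0.223% ± 0.027 in saline and 0.300% ± 0.055 in ancrod mice (SD, n = 4 each), with ranges of 0.185 to 0.243% and 0.229 to 0.356% that overlap at ancrod mouse 3.

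The members outside the enzymes had fold changes of either sign in fibroblast-like cells, and none passed the adjusted threshold. Egln3 stood at 17.2 to 23.5 CPM in saline mice and 26.0 to 31.0 CPM in ancrod mice without overlap (fold change 0.34, SE 0.11, edgeR adjusted p = 0.247). Ddit4 stood at 27.4 to 33.8 and 21.2 to 26.7 CPM, also without overlap (−0.28, SE 0.10, edgeR adjusted p = 0.267). The Ddit4 levels lie within the 19.3 to 58.3 CPM of empty droplets. Neither difference was the same in all clusters of the class. In cluster 18, led by Lum and Dcn, Egln3 stood at 10.9 to 23.4 CPM in 3 saline mice and 8.89 to 17.9 CPM in 4 ancrod mice, with the lower median in ancrod (15.1 against 23.4), and Ddit4 at 32.7 to 47.5 and 25.9 to 35.4 CPM. In cluster 26, led by Col1a1 and Col1a2, Egln3 stood at 18.4 to 22.8 and 28.2 to 45.6 CPM, and Ddit4 at 11.3 to 19.1 and 19.6 to 21.1 CPM, both higher in ancrod without overlap. They were not alone there. Hk2, Ndrg1, Ankrd37, Car9, Bhlhe40 (88.5 to 110 and 188 to 209 CPM) and Ero1a were also higher without overlap in this cluster, and Pfkm was lower. The share of all genes without overlap was not computed within clusters. Over the whole class, Egln3 and Ddit4 were the only 2 of the 40 members whose mice did not overlap, 5.0%, against 8.11% of all genes. Positive fold changes with an unadjusted p under 0.05 were further found for Slc16a3 (1.04), Adm (0.92 and −0.15 as a CPM ratio in batch 2), Bhlhe40 (0.65), P4ha2 (0.55) and Ero1a (0.31), and a negative one for Mxi1 (−0.52). Of the 18 members with an unadjusted p under 0.05, Egln3, Ldha and P4ha2 lay above the empty droplets in every mouse, and the other 15 lay within or below their range in at least 1 mouse.

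Several other values moved with the fibroblast-like result. The class held 34 cells in saline mouse 3 and 87 in ancrod mouse 2, against 167 to 608 in the other mice. It made up 0.570 to 4.22% of cells in saline mice (median 3.61%) and 1.55 to 10.4% in ancrod mice (median 7.86%). These are shares of dissociated cells and not counts in tissue. The study's methods describe such a trend as probably caused by easier dissociation where fibrosis was reduced. By GFP staining of sections from reporter mice, the study reported fewer activated fibroblasts in the lesion core with ancrod. The part of dissociation was not tested here. Cluster 38 of this class, led by collagen genes and the cell-cycle genes Birc5 and Pclaf, made up 5.88 to 8.93% of the class in saline mice and 8.72 to 22.7% in ancrod mice. Cluster 18 made up 23.5 to 57.1% (median 49.9%) in saline and 22.5 to 45.7% (median 35.8%) in ancrod mice, and cluster 35, led by Penk and Ccn3, 4.79 to 35.3% (median 12.9%) and 16.4 to 20.7% (median 18.4%). In an alternative chosen after seeing the data, without cluster 38, the fold change of Pgk1 was 0.71 (edgeR adjusted p = 0.437), that of Pgam1 was 0.47 (adjusted p = 0.448), and the difference of the glycolytic share was 0.0651 percentage points against 0.0776 with all clusters. Within cluster 18, led by Lum and Dcn, the share was 0.169 to 0.191% in 3 saline mice and 0.178 to 0.223% in 4 ancrod mice, and within cluster 26, led by Col1a1 and Col1a2, it was 0.196 to 0.270% and 0.246 to 0.440%.

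The immediate early and heat-shock genes known to respond to tissue handling had 10 positive fold changes of 10 in fibroblast-like cells, with a median of 0.42, and shares of 0.549 to 0.918% in saline and 0.873 to 1.13% in ancrod mice. Summed smooth muscle markers stood at 145 to 417 CPM in saline and 315 to 1500 CPM in ancrod mice (5 of 6 higher by median, none at 0 in all mice), and neuron markers at 6.27 to 12.5 and 14.7 to 21.4 CPM (5 of 7 higher, none at 0). The 7 fibroblast markers stood at 25505 to 35326 and 23275 to 27613 CPM (1 of 7 higher). The part of these values in the difference of the enzymes was not tested.

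Without ancrod mouse 2 the fold change of Pgk1 was 0.63 (adjusted p = 0.465), and without ancrod mouse 3 it was 1.01 (adjusted p = 0.0607). Of 34 further pathway genes, such as glucose transporters, pyruvate dehydrogenase kinases and Vegfa, 32 were tested in this class, 20 had a positive fold change, the median was 0.04 and 0 passed. The 20 genes of oxidative phosphorylation had a median of 0.02, with 15 positive.

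**Figure D4:**
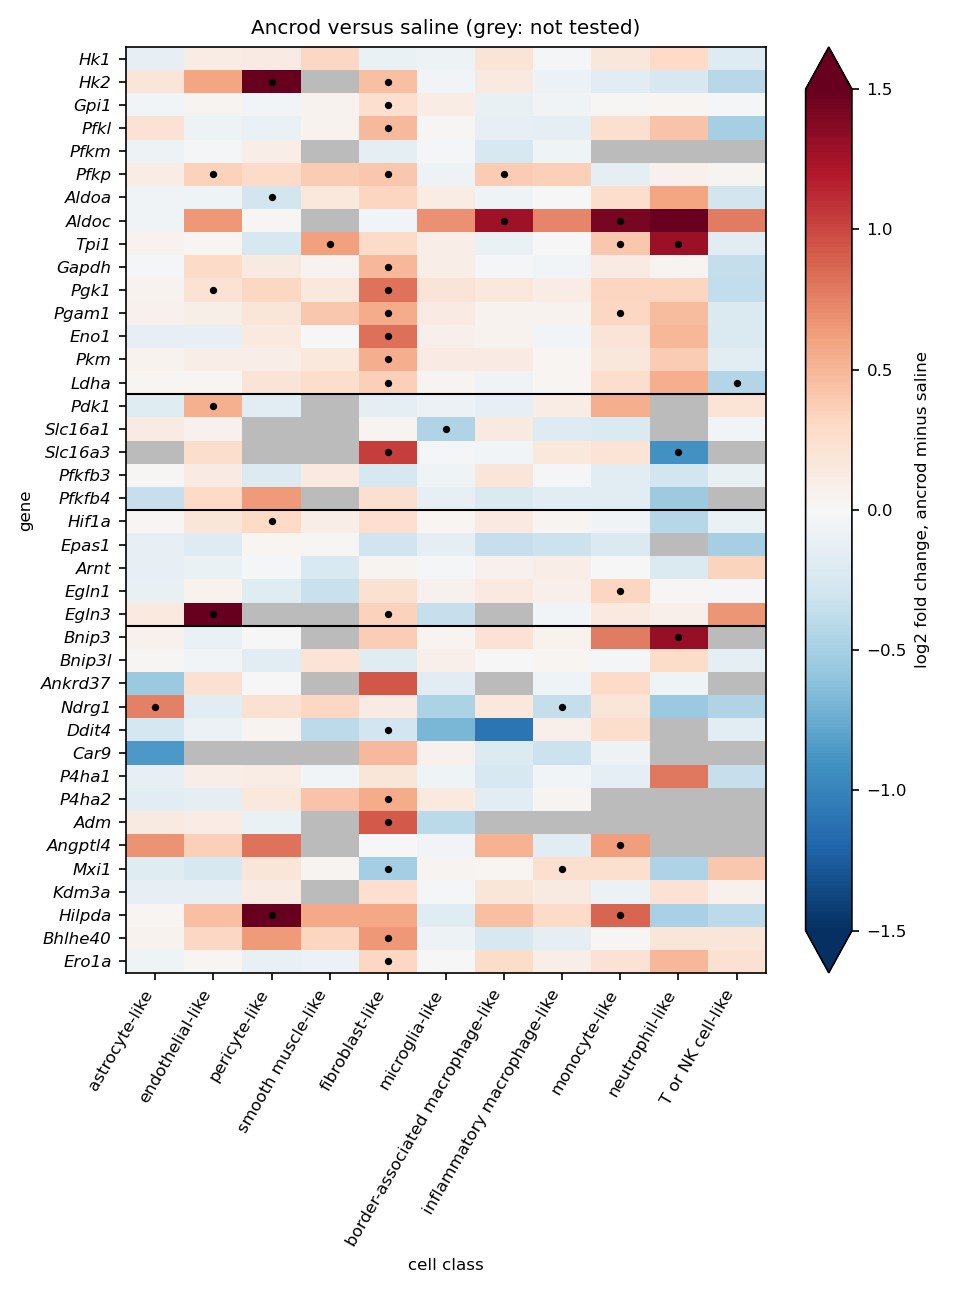
Log2 fold change, ancrod minus saline, of each gene (vertical axis) in the 11 classes tested (horizontal axis). Red is higher in ancrod, blue lower, grey not tested, and a dot marks an unadjusted edgeR p under 0.05. No cell passed the adjusted threshold. The fibroblast-like column holds 18 dots, 10 of them among the 15 enzymes in the top block.

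Pericyte-like cells held the lowest p of any member. Of 36 members tested 0 passed the adjusted threshold, against 0.516% of all genes, 4 had an unadjusted p under 0.05 (11.1%, against 10.8% of all genes), and 1, Hif1a, did not overlap between the groups (2.78%, against 6.48%). DESeq2 called 0 members. Hilpda stood at 21.1, 13.2, 33.1 and 25.9 CPM in saline mice and 87.2, 98.6, 24.97 and 35.5 CPM in ancrod mice. Ancrod mice 1 and 2 were high, mouse 4 lay just above the saline mice and mouse 3 among them.

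Its fold change was 1.54 (SE 0.37, edgeR unadjusted p = 0.000614, adjusted p = 0.0823), with 1.64 in batch 1 and 0.45 in batch 2, on 14 to 156 UMIs per mouse. Over the alternatives the fold change ran from 1.18 without ancrod mouse 2 to 1.80 with doublets kept, and the adjusted p fell below 0.05 in 5 of them. Empty droplets held 59.8 to 152 CPM of Hilpda, so the 4 saline mice and ancrod mice 3 and 4 lay below their lowest profile, ancrod mice 1 and 2 lay within their range and no mouse lay above it, and with free RNA subtracted the fold change was 1.74 (adjusted p = 0.0816).

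Hk2 was the next, at 10.6, 4.73, 2.21 and 1.99 CPM in saline and 14.4, 14.5, 8.69 and 22.4 CPM in ancrod mice, a fold change of 1.51 (SE 0.44, edgeR adjusted p = 0.160) on 2 to 23 UMIs per mouse. Ancrod mouse 3 lay below saline mouse 1. The ratio of CPM was 1.10 in batch 1 and 3.49 in batch 2 on the log2 scale, and all levels lay below the 97.7 CPM of the lowest empty-droplet profile. Without saline mouse 1 the fold change was 2.29 (edgeR adjusted p = 0.0873). Hif1a stood at 109 to 142 CPM in saline and 143 to 164.5 CPM in ancrod mice (0.30, edgeR adjusted p = 0.389), with 7 of the 8 mice below the 153 CPM of the lowest empty-droplet profile, and Aldoa at 467 to 659 and 399.5 to 469 CPM (−0.28, edgeR adjusted p = 0.434).

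In the same cells the tissue handling genes had 10 positive fold changes of 10 with a median of 0.81 and shares that did not overlap, 0.165 to 0.415% in saline and 0.434 to 0.733% in ancrod mice. Junb (1.14, SE 0.23, edgeR adjusted p = 0.0388) and Egr1 (1.12, SE 0.21, edgeR adjusted p = 0.0300) were higher past the threshold, the only genes of the further lists that passed in any class with edgeR. With DESeq2 4 of the 10 tissue handling genes passed in pericyte-like, 3 in monocyte-like and 1 in fibroblast-like cells. Inflammatory macrophage markers summed to 294 to 448 CPM in saline and 564 to 1385 CPM in ancrod mice (7 of 8 higher, none at 0), fibroblast markers to 708 to 887 and 967 to 1292 CPM (5 of 7 higher, none at 0), and oligodendrocyte precursor markers to 531 to 614 and 395 to 513 CPM (2 of 6 higher, Cacng4 at 0). The 7 pericyte markers summed to 29624 to 32933 and 28387 to 31540 CPM. The part of these values in the difference of Hilpda was not tested.

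**Figure D5:**
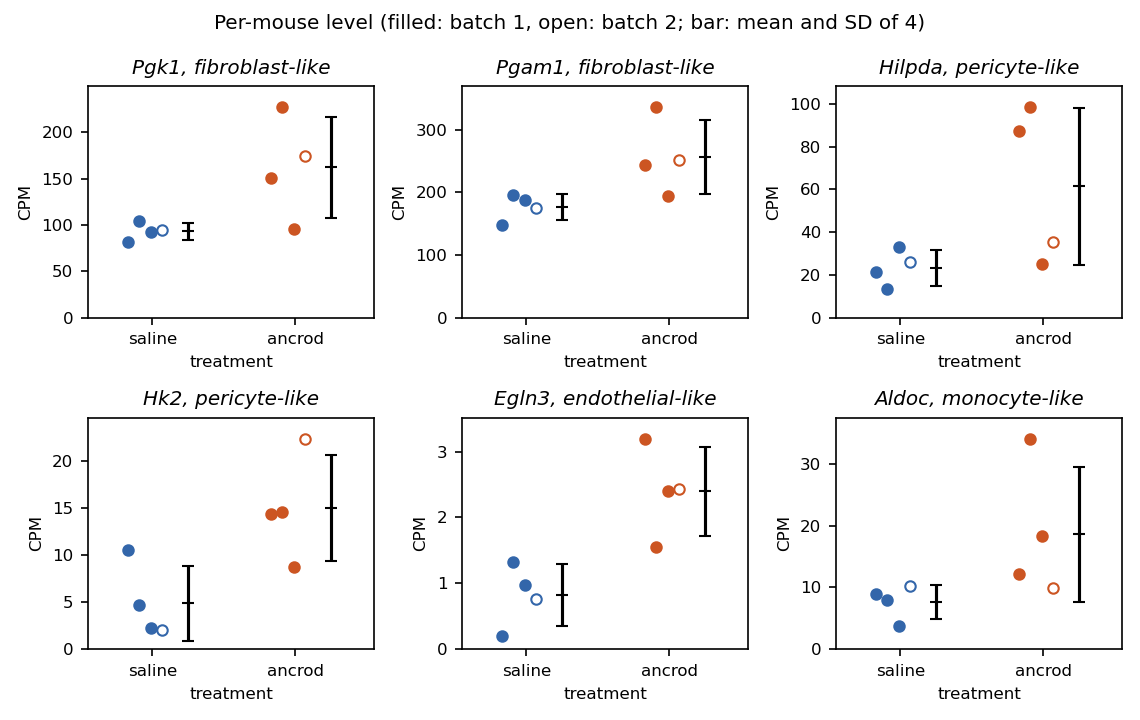
CPM of 6 gene and class pairs in each mouse, filled points for batch 1 and open points for batch 2, with the mean and SD of 4 mice beside each group. Egln3 in endothelial-like cells is the only pair of the 6 whose groups do not overlap, at 0.206 to 1.33 CPM in saline and 1.55 to 3.20 CPM in ancrod mice.

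In endothelial-like cells 39 members were tested and 0 passed, as did 0% of all genes with edgeR, and DESeq2 called 0 members. An unadjusted p under 0.05 was found for 4 (10.3%, against 8.32% of all genes), all higher in ancrod, and 2 did not overlap (5.13%, against 3.98%), Pfkfb4 and Egln3. Egln3 stood at 0.206, 1.33, 0.980 and 0.759 CPM in saline mice and 3.20, 1.55, 2.40 and 2.43 CPM in ancrod mice. All ancrod mice were higher, on 3 to 42 UMIs per mouse, with a fold change of 1.50 (SE 0.43, edgeR adjusted p = 0.587) and 1.51 and 1.68 in the batches.

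Over the whole class these Egln3 levels lie below the 5.82 to 8.75 CPM of empty droplets, but they differed between clusters. In cluster 31, led by Selp and Ackr1, Egln3 stood at 1.43 to 5.99 CPM in saline and 8.98 to 14.7 CPM in ancrod mice, without overlap and with all ancrod mice above the empty droplets, the lowest of them only just. In clusters 2, 6 and 11 no mouse of either group exceeded 1.02 CPM of Egln3, and in cluster 21 none exceeded 2.77 CPM. Epas1 did not overlap in cluster 31 either, and was lower in ancrod, at 442 to 606 CPM in saline and 394 to 425 CPM in ancrod mice. The share of all genes without overlap was not computed for this cluster. Cluster 31 made up 2.98 to 6.50% of the class in saline (median 4.97%) and 3.21 to 10.4% in ancrod mice (median 9.70%). Its part in the class value of Egln3 was not tested. Pfkp stood at 20.3 to 31.3 CPM in saline and 29.2 to 35.3 CPM in ancrod mice (0.34, SE 0.12, edgeR adjusted p = 0.590; 0.41 and 0.17 in the batches), within or below the 23.4 to 65.2 CPM of empty droplets, and without saline mouse 1 the fold change was 0.23. Homeostatic astrocyte markers were higher in this class in all ancrod mice, 106 to 145 against 149 to 210.1 CPM (7 of 7 higher, none at 0), and fibroblast markers stood at 10.8 to 31.0 and 13.2 to 152 CPM. The class itself was smaller in ancrod mice, with 6.80 to 16.8% of cells against 19.4 to 22.7%, and its cells were deeper there, with a median of 11797 to 16862 UMIs against 7372 to 9704.5. Cluster 11 made up a median of 21.6% of the class in saline and 14.7% in ancrod mice, and cluster 21 made up 9.37 and 14.2%, and what depth and cluster make-up contributed was not tested. The class's share of glycolytic enzymes overlapped between the groups (0.172 to 0.196% and 0.176 to 0.208%).

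Monocyte-like cells gave 37 members tested, 0 passed (0.0105% of all genes passed), 6 with an unadjusted p under 0.05 (16.2%, against 6.89%), all higher in ancrod, and 2 without overlap (5.41%, against 3.7%). Aldoc stood at 8.89, 7.89, 3.79 and 10.2 CPM in saline and 12.2, 34.2, 18.4 and 9.84 CPM in ancrod mice, a fold change of 1.42 (SE 0.41, edgeR adjusted p = 0.523) that was 1.65 in batch 1 and −0.05 in batch 2. All these levels lie below the 170 CPM of the lowest empty-droplet profile, and homeostatic astrocyte markers stood at 12.8 to 65.0 CPM in saline and 41.4 to 183 CPM in ancrod mice (7 of 7 higher, none at 0). Angptl4 stood at 6.35 to 8.05 and 9.21 to 16.3 CPM without overlap (0.63, SE 0.23, edgeR adjusted p = 0.622, with 0.79 and 0.29 in the batches), below the 18.5 CPM of the lowest empty-droplet profile, and without ancrod mouse 2 its fold change was 0.41. Tpi1 did not overlap either, at 128 to 147 and 151 to 253 CPM, where empty droplets held 135.5 to 190.2 CPM. Tissue handling genes took 0.456 to 0.603% of UMIs in saline and 0.309 to 0.441% in ancrod mice, and border-associated macrophage markers stood at 296 to 468.5 against 541 to 839.9 CPM (5 of 7 higher, none at 0). The monocyte markers themselves stood at 2183 to 4018 and 1610.4 to 3641 CPM (0 of 7 higher). The part of these values was not tested.

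In neutrophil-like cells saline mouse 1 was left out, so 3 saline mice were compared with 4 ancrod mice. Of 31 members 0 passed (0% of all genes), 3 had an unadjusted p under 0.05 (9.68%, against 5.13%) and 5 did not overlap (16.1%, against 5.29%). Slc16a3 stood at 378, 420.1 and 503 CPM in saline mice 2 to 4 and 194, 244, 240.1 and 329 CPM in ancrod mice, all lower, a fold change of −0.90 (SE 0.26, edgeR adjusted p = 0.751) with −0.82 and −0.61 in the batches. Tpi1 stood at 78.6, 47.2 and 40.2 CPM in saline and 118, 223, 128 and 57.5 CPM in ancrod mice, 1.30 (SE 0.38, edgeR adjusted p = 0.751; 1.31 and 0.52 in the batches). Apart from ancrod mouse 2, these mice lay below the 135.5 CPM of the lowest empty-droplet profile for Tpi1. Median depth was 5276.5 to 5701.5 UMIs per cell in these saline mice and 4301 to 5148 in ancrod mice, and its part was not tested.

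Aldoa, Eno1 and Bnip3 were higher and Slc16a3 and Pfkfb4 lower in ancrod without overlap in this class. As a sum, the 5 genes of glycolytic control and lactate transport took 0.0606 to 0.0748% of UMIs in saline and 0.0387 to 0.0486% in ancrod mice, without overlap. The 15 enzymes took 0.299% ± 0.014 (SD, n = 3) and 0.388% ± 0.094 (SD, n = 4), with overlap. A positive fold change was found for 13 of the 14 enzymes tested, with a median of 0.41 against 0.05 over all genes. Genes of oxidative phosphorylation were mostly positive too, 19 of 20, with a median of 0.33. The neutrophil markers summed to 108334 to 182630 CPM in saline and 67848 to 136287 CPM in ancrod mice (1 of 7 higher), and homeostatic astrocyte markers to 19.3 to 134 and 90.4 to 619 CPM (7 of 7 higher, none at 0). The part of these values was not tested.

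In smooth muscle-like cells, with saline mouse 4 and ancrod mouse 1 left out for fewer than 20 cells, 26 members were tested, 0 passed (0% of all genes), 1 had an unadjusted p under 0.05 (3.85%, against 3.63%) and 5 did not overlap (19.2%, against 9.19%). All 12 enzymes tested had a positive fold change, with a median of 0.16. Tpi1 stood at 94.96, 133 and 126 CPM in saline mice 1 to 3 and 171, 153 and 218 CPM in ancrod mice 2 to 4 (0.61, SE 0.22, edgeR adjusted p = 0.991). Pgam1 stood at 135, 122 and 163 and at 165, 183 and 189 CPM (0.40, SE 0.20, edgeR adjusted p = 0.991). Both were higher in all ancrod mice, as were Pfkp and Ldha, while Arnt was lower. Batch 2 lacked a saline mouse here, and the ratio in batch 1 was 0.46 for Tpi1 and 0.32 for Pgam1. Border-associated macrophage markers stood at 7.91 to 27.2 and 33.0 to 50.8 CPM (3 of 7 higher, none at 0), and oligodendrocyte markers at 12.95 to 20.4 and 3.63 to 12.2 CPM (0 of 6 higher, Mog, Mag and Ermn at 0). Empty droplets held 135.5 to 190.2 CPM of Tpi1 and 177 to 306 CPM of Pgam1.

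The microglia-like class and the 2 macrophage-like classes each had 1 or 2 members with an unadjusted edgeR p under 0.05. In microglia-like cells, the largest class with 17030 cells, 40 members were tested, 0 passed (0% of all genes), 1 had an unadjusted p under 0.05 (2.50%, against 4.04%) and 0 were without overlap (against 2.07%). The glycolytic share was 0.255% ± 0.021 in saline and 0.263% ± 0.022 in ancrod mice (SD, n = 4 each). Slc16a1 stood at 45.1, 27.5, 29.2 and 37.8 CPM in saline and 19.6, 27.0, 30.3 and 21.4 CPM in ancrod mice (−0.46, SE 0.16, edgeR adjusted p = 0.936; −0.41 and −0.82 in the batches), levels below the 60.1 CPM of the lowest empty-droplet profile. Ddit4 stood at 17.1, 9.49, 4.45 and 8.47 and at 7.92, 4.26, 6.95 and 3.79 CPM (−0.69, SE 0.35, edgeR adjusted p = 0.936; −0.70 and −1.16 in the batches), also below the lowest empty-droplet level of 19.3 CPM, and without saline mouse 1 its fold change was −0.34. Over all mice, Slc16a1 and Ddit4 were higher in cluster 16 (87.5 and 22.0 CPM) and cluster 10 (62.6 and 22.1 CPM) than in cluster 3 (14.5 and 3.21 CPM). Pooled over mice, 794 of the 1018 cells of cluster 16 and 882 of the 1405 cells of cluster 10 came from saline mice. Saline mice gave 9291 of the 17030 cells of the class, so both clusters were a larger part of it in saline than in ancrod mice. The part of this cluster make-up was not tested. Neuron markers stood at 3.43 to 5.55 and 5.65 to 14.8 CPM in this class (6 of 7 higher, none at 0), and their part was not tested.

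In inflammatory macrophage-like cells 39 members were tested, 0 passed (0% of all genes), 2 had an unadjusted p under 0.05 (5.13%, against 2.97%) and 1 did not overlap (2.56%, against 1.71%). Mxi1 stood at 137, 149.8, 147 and 133 CPM in saline and 174, 178, 174 and 156 CPM in ancrod mice (0.24, SE 0.07, edgeR adjusted p = 0.999; 0.28 and 0.23 in the batches), and all ancrod mice were higher. Ndrg1 stood at 30.8, 30.7, 25.9 and 33.4 and at 24.8, 19.7, 23.1 and 28.0 CPM (−0.36, SE 0.12, edgeR adjusted p = 0.999; −0.37 and −0.25). The Ndrg1 levels lie below the 40.6 CPM of the lowest empty-droplet profile. Neuron markers stood at 0.945 to 1.84 and 2.55 to 6.57 CPM (5 of 7 higher, none at 0), pericyte markers at 3.18 to 5.83 and 6.10 to 18.0 CPM (6 of 7 higher, none at 0) and smooth muscle markers at 2.46 to 3.35 and 3.43 to 5.12 CPM (5 of 6 higher, none at 0), all without overlap. Their part was not tested.

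In border-associated macrophage-like cells 37 members were tested, 0 passed (0% of all genes), 2 had an unadjusted p under 0.05 (5.41%, against 4.59%) and 1 did not overlap (2.70%, against 2.77%). Pfkp stood at 22.8, 19.3, 20.7 and 18.2 CPM in saline and 32.9, 23.6, 23.5 and 24.9 CPM in ancrod mice (0.38, SE 0.16, edgeR adjusted p = 1.00; 0.35 and 0.45 in the batches), where empty droplets held 23.4 to 65.2 CPM. Aldoc stood at 9.14, 3.87, 2.16 and 8.57 and at 11.4, 27.9, 16.3 and 3.21 CPM (1.27, SE 0.57, edgeR adjusted p = 1.00), with 1.87 in batch 1 and −1.42 in batch 2. The fold change of Aldoc was 0.79 without ancrod mouse 2, and all its levels lie below the empty droplets. Homeostatic astrocyte markers in this class stood at 16.0 to 45.7 and 50.6 to 219 CPM (5 of 7 higher, none at 0), and reactive astrocyte markers at 117 to 292 and 293 to 474 CPM (7 of 7 higher, none at 0). The part of these values was not tested.

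Astrocyte-like cells, the class with the highest glycolytic share, showed no difference of that share beyond the spread of mice, at 0.788% ± 0.048 in saline and 0.776% ± 0.050 in ancrod mice (SD, n = 4 each). Pooled over mice, 281 of the 1115 cells of cluster 14, with the highest share within the class, came from saline mice. Saline mice gave 1530 of the 4227 cells of the class, so cluster 14 was a smaller part of it in saline than in ancrod mice. What this cluster make-up contributed was not tested. Of 39 members 0 passed (0% of all genes), 1 had an unadjusted p under 0.05 (2.56%, against 3.59%) and 0 were without overlap (against 2.39%). Ndrg1 stood at 5.83, 6.22, 7.22 and 7.98 CPM in saline and 13.9, 7.37, 9.23 and 15.3 CPM in ancrod mice (0.75, SE 0.25, edgeR adjusted p = 1.00; 0.66 and 0.94 in the batches), below the 40.6 CPM of the lowest empty-droplet profile. Pfkl stood at 66.5, 62.9, 66.9 and 66.2 and at 88.5, 62.9, 80.1 and 75.6 CPM (0.22, SE 0.11, edgeR adjusted p = 1.00; 0.24 and 0.19). The 5 oxygen-sensing genes summed to 0.0360 to 0.0374% of UMIs in saline and 0.0326 to 0.0359% in ancrod mice, a small difference without overlap. Over the 12 classes this sum was without overlap in 2, astrocyte-like cells among them. Border-associated macrophage markers stood at 3.72 to 4.57 and 5.22 to 8.01 CPM in this class (3 of 7 higher, none at 0).

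In T or NK cell-like cells 22 of 31 members tested had a negative fold change, with a median of −0.16 against 0.00 over all genes, 0 passed (0% of all genes), 1 had an unadjusted p under 0.05 (3.23%, against 3.65%) and 0 were without overlap (against 2.32%). Genes of oxidative phosphorylation were mostly negative too, 17 of 20, with a median of −0.12. Ldha stood at 239.9, 296.5, 253 and 365 CPM in saline and 192, 179, 211 and 298 CPM in ancrod mice (−0.44, SE 0.18, edgeR adjusted p = 1.00; −0.44 and −0.29 in the batches), where empty droplets held 189 to 245 CPM. Pgk1 stood at 95.4, 157, 118 and 148 and at 109.7, 80.9, 118 and 102 CPM (−0.37, SE 0.18, edgeR adjusted p = 1.00; −0.27 and −0.54), none of them above the 164 CPM of the highest empty-droplet profile. Homeostatic astrocyte markers stood at 18.8 to 86.6 and 81.6 to 179 CPM (6 of 7 higher, none at 0), and neutrophil markers at 3.66 to 20.4 and 30.8 to 148 CPM (4 of 7 higher, Ly6g at 0). Ependymal markers stood at 1.70 to 4.88 and 5.25 to 7.25 CPM (3 of 6 higher, Ccdc153 and Dynlrb2 at 0). The part of these values was not tested.

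The 34 further pathway genes and the 20 genes of oxidative phosphorylation gave no gene past the threshold in any of the 11 classes with edgeR. Whether the difference between ancrod and saline itself differed between fibroblast-like and other classes was not tested.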

How the data were processed

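Whole-cell suspensions of 8 mice were profiled by droplet-based 3′ single-cell RNA sequencing. The authors deposited raw UMI counts per gene and barcode for each mouse, made with Cell Ranger 7.1.0, which aligns with STAR, on build GRCm39 (mm39), per the submitters' processing notes. Intronic as well as exonic reads were counted, so levels include unspliced transcripts. The deposited tables hold every droplet, empty ones included.

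Droplets with at least 2000 UMIs and less than 20% mitochondrial UMIs (13 genes) were kept. Likely doublets were removed by simulated doublets at an expected rate that grows with the number of droplets. Cells were clustered (3000 variable genes without the 40 members, 20 principal components, 20 neighbours, Leiden resolution 2), and clusters were named from marker lists. Homeostatic and reactive astrocyte lists were merged into 1 class, and clusters of more than 50% doublets were left unnamed, both decided after the clusters were seen. Clusters of low depth (with no own marker among the 10 leading genes) or led by markers of another class were also left unnamed. UMIs were summed per mouse and class, leaving out a mouse with fewer than 20 cells of the class. Sums were tested with edgeR 4.0.16 (quasi-likelihood test, filterByExpr, TMM, Benjamini-Hochberg over all genes of the class, R 4.3.3), and with DESeq2 1.42.0 as an alternative. Every member is named for its levels, and in each class tested the members past the threshold and the 2 members with the lowest unadjusted p are given with every mouse. Other members named were chosen after their values were seen. The edgeR step was tested on simulated data. Other settings were another normalization, no filter on low counts, batch or replicate number as a term, leaving out each mouse, doublets kept, at least 5000 UMIs, removal of 5% free RNA, a coarser clustering and, chosen after seeing the data, removal of 1 fibroblast-like cluster. The members and the lists were chosen with earlier results of these data known.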

Additional observations from a re-analysis of the deposited data

Results flagged for a closer look

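The level of Pfkp in border-associated macrophage-like cells was 32.9 CPM in ancrod mouse 1, apart from the other 3 ancrod mice, of which the nearest stood at 24.9 CPM. It was the only mouse found apart by Dixon's test at the 95% level among 105 groups of 4 mice, of which chance alone would mark about 1 in 20.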

How the results depend on the processing

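No fold change of a member given with every mouse under the fixed naming rule changed sign in any setting. Members past the threshold numbered 1 in place of 0 in fibroblast-like cells with DESeq2 (Pgk1), in neutrophil-like (Tpi1) and smooth muscle-like cells (Slc16a1) with no filter on low counts, and in pericyte-like cells (Hilpda) with doublets kept (adjusted p = 0.0168), with no filter (0.00129) and with the replicate block (1.44, adjusted p = 0.0488). Leaving out 1 mouse gave 0 to 1 in pericyte-like cells, 1 without ancrod mouse 3 (1.79, adjusted p = 0.0144) or 4 (1.71, adjusted p = 0.0357), and 0 in the other classes. The fold change of Pgk1 in fibroblast-like cells ran from 0.63 to 1.01 and that of Hilpda in pericyte-like cells from 1.18 to 1.79 when 1 mouse was left out. The cause of these changes was not tested.

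All genes past the threshold numbered with DESeq2 235 in place of 0 in fibroblast-like, 127 in place of 47 in pericyte-like, 28 in place of 1 in monocyte-like, 23 in place of 0 in endothelial-like, 3 in border-associated macrophage-like, 3 in inflammatory macrophage-like, 2 in microglia-like and 1 in neutrophil-like cells. With no filter on low counts they numbered 169 in pericyte-like, 123 in neutrophil-like, 28 in smooth muscle-like, 13 in monocyte-like, 5 in T or NK cell-like and 1 in fibroblast-like cells. With the replicate block they numbered 110 in pericyte-like, 99 in fibroblast-like, 20 in smooth muscle-like and 6 in monocyte-like cells. The deviations of same-numbered mice correlated between −0.37 and 0.23 and those of number 4, the mice that make up batch 2, were positive in 9 of 10 classes (−0.14 to 0.23), so the numbers were not taken to pair the mice beyond their batch. In pericyte-like cells the count was 73 with batch as a term, 75 with doublets kept and 7 with at least 5000 UMIs, in monocyte-like cells 3 with batch and 2 with free RNA removed, in fibroblast-like cells 1 with doublets kept, and in border-associated macrophage-like cells 3 with the coarser clustering. Leaving out 1 mouse gave 0 (without saline mouse 2) to 92 (without ancrod mouse 3) in pericyte-like, 1 to 2 in monocyte-like, 0 to 4 in neutrophil-like and 0 to 1 in fibroblast-like, border-associated and inflammatory macrophage-like cells.

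Of 200 levels under other settings 192 moved by less than the spread of mice. With a mean over cells, Hk2 in microglia-like cells stood at 416 CPM, Pfkm in astrocyte-like cells at 169, Pfkl and Bnip3l in endothelial-like cells at 85.6 and 351, and Car9 in inflammatory macrophage-like cells at 6.99. With doublets kept, Gpi1 in smooth muscle-like cells stood at 214 CPM and Slc16a3 in neutrophil-like cells at 355, and with free RNA removed Pfkp in astrocyte-like cells stood at 255. The class with the highest level moved for Gpi1, Egln1, P4ha2 and Kdm3a with doublets kept, for Gpi1, Aldoa and Kdm3a with at least 5000 UMIs, and for Pkm, Kdm3a and Bhlhe40 with a mean over cells. Low UMI counts limit the smaller classes, where Hk2 in pericyte-like cells rests on as few as 2 UMIs in a mouse.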
